A study of Mus musculus with 3 samples.

Results

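Matrix metalloproteinases (MMPs) and their tissue inhibitors (TIMPs) were followed in primary mouse pre-osteoclasts, with or without orbital shear stress and with or without knockdown of Ift88. The genes were taken by symbol from the deposited expression table, as the 9 rows named Mmp2, Mmp8, Mmp12, Mmp13, Mmp14, Mmp19, Timp1, Timp2 and Timp3, of 24067 genes in all. Of these 9, 7 had a mean level of at least 1 FPKM over the 3 libraries. FPKM counts sequenced fragments relative to transcript length and library size, so levels of different genes can be set side by side.

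Pre-osteoclasts are mononuclear precursors that carry tartrate-resistant acid phosphatase and fuse into bone-resorbing osteoclasts. The 3 groups were sheared cells with Ift88 shRNA, sheared cells with control shRNA, and static cells with control shRNA, with 1 library in each. All 3 groups were primary bone-derived cells cultured with MCSF and RANKL for 2 days, and all carried an shRNA. Sheared dishes were then swirled for 24 hours. The labels do not name the vectors or the number of animals or dishes behind a library. A static Ift88 shRNA library was not analysed here, and an action of the knockdown without shear cannot be told apart from an action under shear. Estimated depth was 35200000, 35300000 and 34900000 fragments in the sheared Ift88 shRNA, sheared control and static libraries. Because each group is 1 library, no difference has a replicate check and no p-value is given. The intervals in brackets are 95% counting intervals and do not cover variation between cultures.

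MMPs are zinc-dependent endopeptidases that cut collagens, elastin, fibronectin and many cell-surface and secreted proteins. Most are secreted as inactive proenzymes, held closed by a propeptide, and are opened by other proteases; the membrane-type enzymes are anchored at the cell surface. TIMPs bind the active site of an MMP and block it, and Timp2 also takes part with Mmp14 in the activation of proMmp2. In bone, MMPs act in matrix turnover and in the migration of osteoclast precursors, beside the cysteine protease cathepsin K.

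The start regions of the genes the results turn on are shown here from RefSeq (GRCm38.p6), as the 250 bases before an annotated transcription start, 5′ to 3′ on the strand of the gene. Mmp12 is shown as the most abundant MMP gene, Mmp13 as its neighbour, and Mmp14 and Timp1 as the members with the largest ratios of Ift88 shRNA to sheared control among the 7 with a mean of at least 1 FPKM. Capitals mark matches, on either strand, to TGANTCA (the AP-1 motif), AGGAAG (the PEA3 motif of ETS factors) and TATAAA (the TATA box). The windows are chr9:7347124-7347373 for the second of 2 annotated starts of Mmp12, chr9:7272264-7272513 for Mmp13, chr14:54431348-54431597 for Mmp14 and chrX:20869916-20870165 for Timp1, all on the plus strand.
Mmp12: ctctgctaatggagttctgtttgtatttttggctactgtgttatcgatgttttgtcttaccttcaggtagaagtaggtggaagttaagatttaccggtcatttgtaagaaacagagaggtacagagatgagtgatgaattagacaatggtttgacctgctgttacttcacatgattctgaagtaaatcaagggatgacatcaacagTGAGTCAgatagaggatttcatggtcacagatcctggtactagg
Mmp13: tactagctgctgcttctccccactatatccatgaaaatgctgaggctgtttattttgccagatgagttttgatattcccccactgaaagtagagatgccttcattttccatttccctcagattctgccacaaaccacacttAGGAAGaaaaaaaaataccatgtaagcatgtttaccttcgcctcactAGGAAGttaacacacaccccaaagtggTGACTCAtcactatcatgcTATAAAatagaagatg
Mmp14: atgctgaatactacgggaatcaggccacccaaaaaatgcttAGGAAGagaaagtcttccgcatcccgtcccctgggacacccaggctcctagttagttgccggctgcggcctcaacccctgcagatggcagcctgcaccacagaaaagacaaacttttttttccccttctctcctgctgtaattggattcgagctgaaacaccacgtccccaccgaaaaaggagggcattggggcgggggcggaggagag
Timp1: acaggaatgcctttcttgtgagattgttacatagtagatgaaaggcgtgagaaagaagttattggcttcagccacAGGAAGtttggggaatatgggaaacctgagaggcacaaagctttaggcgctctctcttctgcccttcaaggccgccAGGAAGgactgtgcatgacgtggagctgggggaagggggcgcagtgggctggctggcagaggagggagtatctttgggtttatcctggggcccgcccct

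Of the 9 genes, 7 had an entry, with 8 starts in all. The AP-1 letters were present before the second start of Mmp12, 44 bases upstream, and before Mmp13, 35 bases upstream. The window of the first Mmp12 start, chr9:7344147-7344396, held no AP-1 letters and 1 PEA3 match, 87 bases upstream. That first start lies at the 5′ end of the gene, whereas the second, shown above, lies inside the gene. Mmp13 also held the TATA letters 16 bases upstream and PEA3 matches 109 and 62 bases upstream. PEA3 letters were found before at least 1 start for 6 of the 7 genes, with Timp2 as the exception. Over 32851 windows of the same length in the table, 6.75% held the AP-1 letters, 29.5% the PEA3 letters and 12.4% the TATA letters. None of the 3 motifs overlapped another in these windows. Such matches describe the sequence and do not show that a factor is bound.

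Mmp12, the macrophage elastase, had the highest level of the 9 genes in each library (gene ID 17381, chromosome 9, 7344397 to 7360461 in GRCm38). Its level was 460.1 FPKM in the sheared Ift88 shRNA library, 501 FPKM in the sheared control library and 555 FPKM in the static library. It stood at rank 154, 145 and 131 among all genes of those libraries. The static library was the highest of the 3 and the Ift88 shRNA library the lowest. Sheared control cells were at 0.904 times the static level (0.894 to 0.914), and sheared cells with Ift88 shRNA at 0.918 times the sheared control (0.907 to 0.929). These narrow intervals rest on an estimated 55370, 60387 and 66138 fragments.

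Timp2, a broad MMP inhibitor and the partner of Mmp14, was next in abundance (gene ID 21858, chromosome 11, 118301061 to 118355411, minus strand). It was at 132.8 FPKM with Ift88 shRNA, 130.0 FPKM in the sheared control and 140.4 FPKM in static cells. The sheared control was at 0.926 times the static level (0.906 to 0.946). With Ift88 shRNA the ratio to the sheared control was 1.02 (0.999 to 1.04), an interval that includes no difference.

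Mmp14, the membrane-anchored MT1-MMP that cleaves fibrillar collagen and activates other MMPs, was the third in order (gene ID 17387, chromosome 14, 54431598 to 54442456). Its level was 19.6 FPKM with Ift88 shRNA, 14.3 FPKM in the sheared control and 16.3 FPKM in static cells. The Ift88 shRNA library was the highest and the sheared control the lowest. The ratio was 1.36 for Ift88 shRNA over the sheared control (1.27 to 1.47) and 0.879 for sheared control over static cells (0.812 to 0.950).

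**Figure D1:**
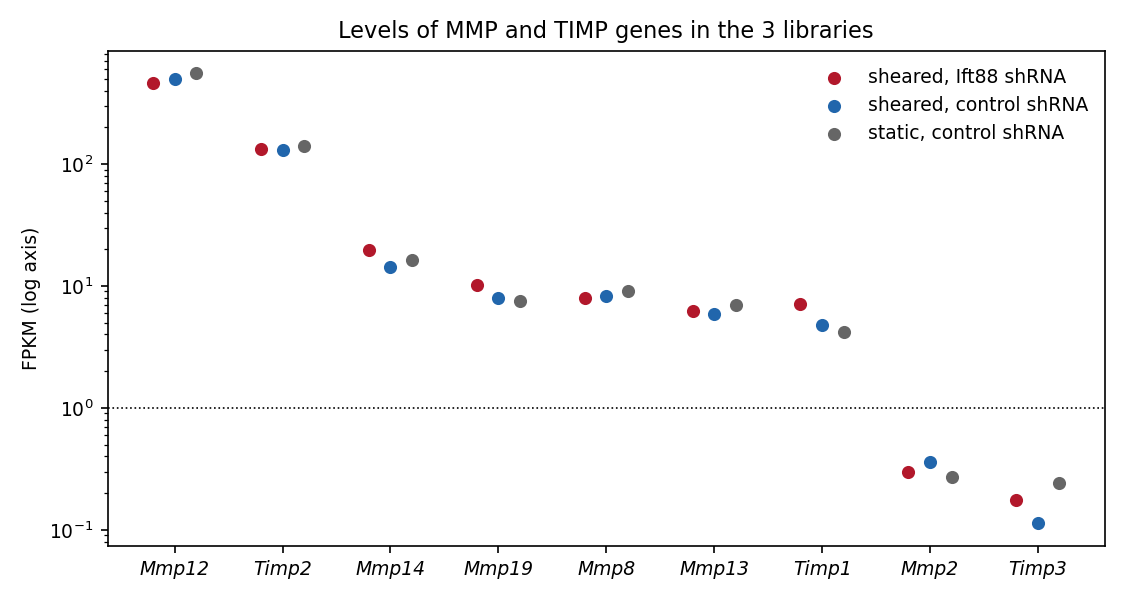
Levels of the 9 genes in FPKM on a log axis, with 1 point per library; the dotted line is 1 FPKM. Mmp12 lies at 460.1 to 555 FPKM, while Mmp2 and Timp3 lie below the line in each library.

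The next 4 genes lay within 4.20 to 10.1 FPKM in each library, and their order changed between libraries. Mmp19, an MMP of basement membrane and matrix proteins, was at 10.1 FPKM with Ift88 shRNA, 7.98 FPKM in the sheared control and 7.53 FPKM in static cells. Mmp8, the collagenase stored in neutrophil granules, was at 7.99, 8.22 and 9.09 FPKM in the same libraries. Mmp13, the interstitial collagenase of cartilage and bone, was at 6.23, 5.87 and 6.92 FPKM. Timp1, a secreted inhibitor of most soluble MMPs, was at 7.07, 4.74 and 4.20 FPKM. In the Ift88 shRNA library Timp1 therefore stood above Mmp13, whereas it was below Mmp13 in both control shRNA libraries.

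Mmp2 and Timp3 were close to the limit of detection. The gelatinase gene Mmp2 was at 0.298 FPKM with Ift88 shRNA, 0.357 FPKM in the sheared control and 0.270 FPKM in static cells, from an estimated 30, 36 and 27 fragments. Timp3, which encodes a matrix-bound inhibitor, was at 0.174, 0.113 and 0.241 FPKM, from 28, 18 and 38 fragments. For Mmp2 each interval included no difference. For Timp3 the sheared control was at 0.469 times the static library (0.252 to 0.842), and the ratio of Ift88 shRNA to sheared control was 1.54 (0.832 to 2.99). Neither gene entered the counts of members.

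The chromosome 9 members sit in a cluster of 10 MMP genes that spans 427 kb. Within it 4 genes had a mean of at least 1 FPKM and 6 did not. Mmp13 lies at one end (7272514 to 7283333), with Mmp12 beside it, and Mmp8 (7558429 to 7568486) is separated from both by Mmp1b, Mmp3, Mmp1a and Mmp10. Those 4 genes lay at or below 0.296 FPKM in each library, and Mmp1a was listed at 0 in all 3. Mmp27, the gene directly after Mmp8, was at 3.80 FPKM with Ift88 shRNA, 4.24 FPKM in the sheared control and 6.33 FPKM in static cells. On to the far end, Mmp20 and Mmp7 were listed at 0 in all 3 libraries.

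**Figure D2:**
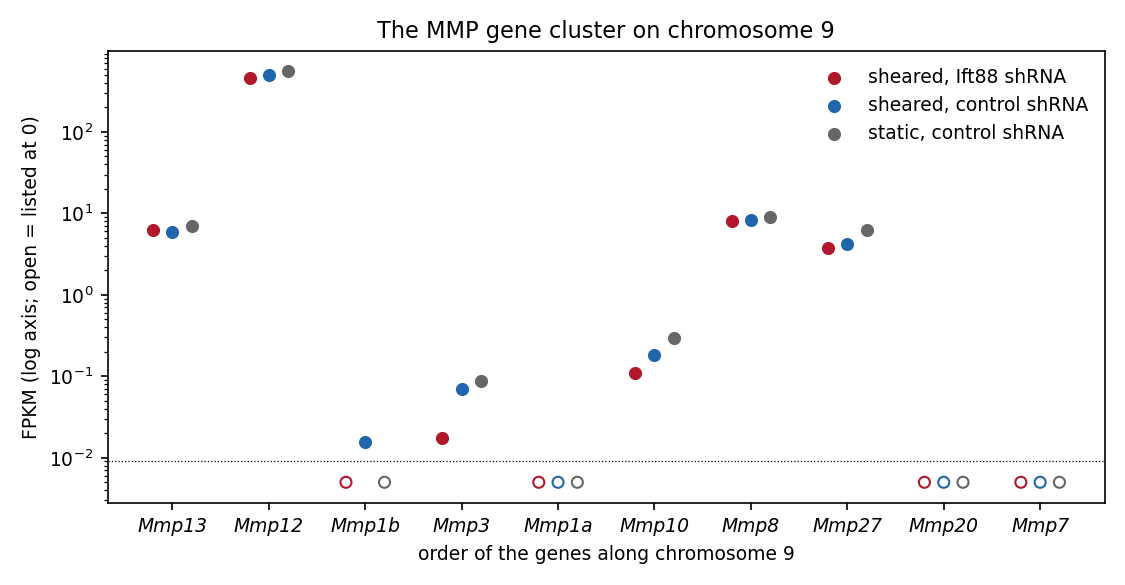
FPKM on a log axis for the 10 MMP genes of the chromosome 9 cluster, in gene order, with 1 point per library; open points mark genes listed at 0. Mmp12 reaches 460.1 to 555 FPKM while 6 of the 10 genes stay under a mean of 1 FPKM.

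The remaining members lie apart from that cluster and from each other, at Mmp2 on chromosome 8 (92827290 to 92853421), Mmp19 on chromosome 10 (128790910 to 128800827), Timp1 on chromosome X (20870166 to 20874737) and Timp3 on chromosome 10 (86300412 to 86349505). Several share ground with a gene on the other strand, and the treatment of strand is not given in the sources used here. Timp1 lies wholly inside Syn1, a synaptic vesicle gene, with 0 shared exon bases in GENCODE. Syn1 was at 4.27 FPKM with Ift88 shRNA, 5.28 FPKM in the sheared control and 6.92 FPKM in static cells, the opposite order to Timp1. Mmp19 shares 789 exon bases with Tmem198b, which was at 11.5, 9.26 and 9.46 FPKM in those libraries. Timp3 shares 1733 exon bases with Syn3, another synapsin gene, which was at 0.184, 0.175 and 0.191 FPKM. The values of Mmp19 and Timp3 are therefore uncertain to the extent that reads of the shared exon bases were divided between strands. For Timp1, with 0 shared exon bases, only Syn1 reads from outside the Syn1 exons could enter its value. Neither extent was tested.

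The shear comparison asks how pre-osteoclasts with control shRNA respond to fluid flow. Mmp8, Mmp12, Mmp13, Mmp14 and Timp2 were lower in sheared than in static cells, at 0.848 to 0.926 times the static level, and Mmp19 and Timp1 were higher. Mmp13 had the lowest ratio, at 0.848 (0.752 to 0.955). The ratios of Mmp8 (0.904, 0.811 to 1.01), Mmp19 (1.06, 0.942 to 1.20) and Timp1 (1.13, 0.855 to 1.48) had intervals that include no difference. No member of the 7 reached 1.5-fold on the log2(FPKM + 1) scale in either direction, where 0.454% of the 10358 genes with a mean of at least 1 FPKM did. None differed by 25% or more on that scale either, where 2.23% of genes did. The median log2 ratio, which is a difference on the log2(FPKM + 1) scale, was -0.13 over the 7 members and -0.01 over all 10358 genes.

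The knockdown comparison asks what Ift88, a component of the transport machinery of the primary cilium, contributes in sheared cells. Ift88 itself was at 1.20 FPKM with Ift88 shRNA, against 2.71 FPKM in the sheared control and 2.98 FPKM in static cells. The level with Ift88 shRNA was 0.442 times the sheared control (0.353 to 0.548).

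Timp1, Mmp14 and Mmp19 had the largest ratios among the 7 members in sheared cells. Timp1 was at 1.49 times the sheared control with Ift88 shRNA (1.17 to 1.90), from an estimated 172 fragments against 116. Mmp14 was at 1.36 times and Mmp19 at 1.27 times (1.14 to 1.42). Mmp13 (1.06, 0.939 to 1.20) and Mmp8 (0.973, 0.871 to 1.09) had intervals that include no difference, and Mmp12 was the member with the lowest ratio. On the log2(FPKM + 1) scale no member reached 1.5-fold, where 0.483% of genes did. At a threshold of 25%, Mmp14 and Timp1 passed on the higher side and no member on the lower side, where 1.89% and 1.32% of genes did. Mmp19 lay just under that threshold, at 1.24-fold. Over the 7 members the median log2 ratio was 0.07, and over all genes 0.01.

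**Figure D3:**
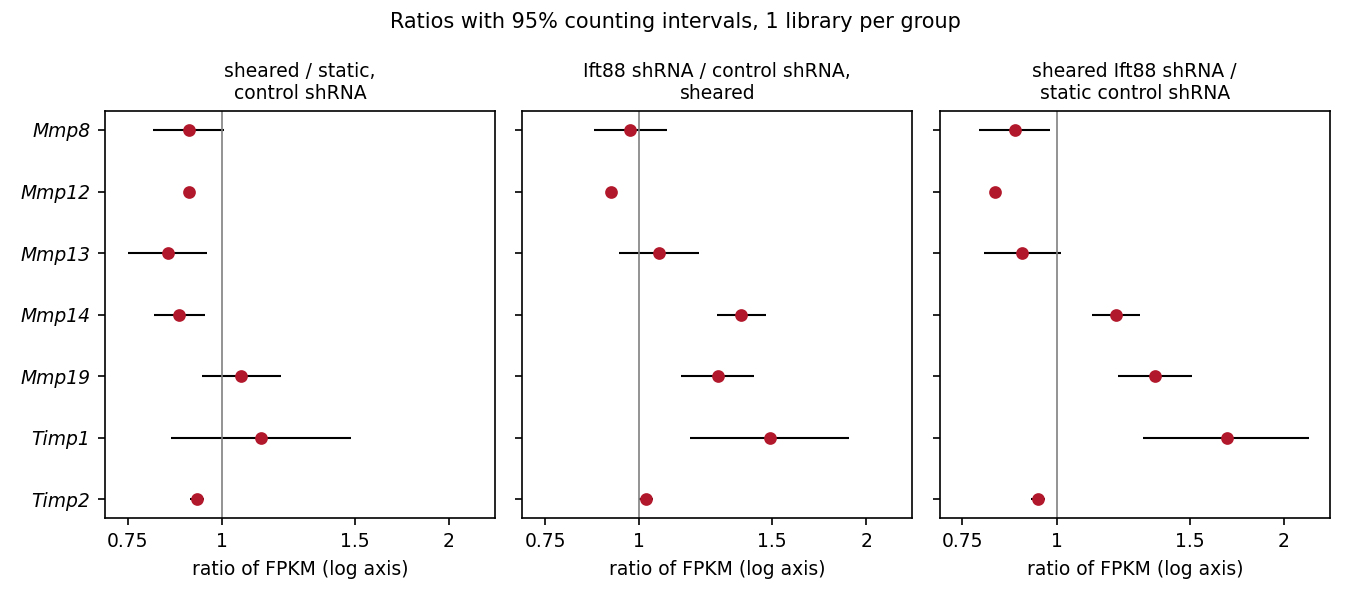
Ratios of FPKM on a log axis for the 7 members with a mean of at least 1 FPKM, in 3 comparisons with 1 library per group; lines are 95% counting intervals. In the middle panel Timp1, Mmp14 and Mmp19 lie right of 1 with intervals that stay above it, while Mmp12 lies left of 1.

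**Figure D4:**
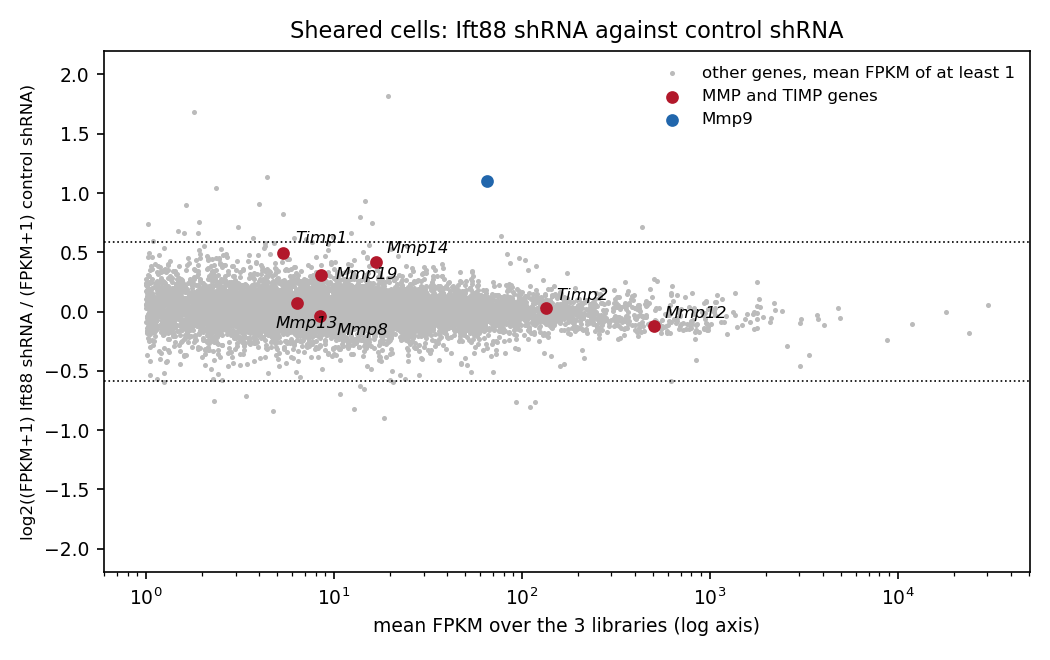
Log2 ratio of FPKM + 1 in sheared cells, Ift88 shRNA over control shRNA, against mean FPKM on a log axis, with 1 point per gene for 10358 genes; 10 genes lie outside the plotted range and dotted lines mark 1.5-fold. The 7 members (red) lie between the dotted lines, and Mmp9 (blue) lies above them.

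The comparison of sheared Ift88 shRNA cells with static control shRNA cells shares a library with each of the other comparisons. Timp1 was the only member past 1.5-fold, at 7.07 FPKM against 4.20 FPKM, a ratio of 1.68 (1.30 to 2.16) and 1.55-fold on the log2(FPKM + 1) scale. Among all genes 0.338% were at least 1.5-fold higher. At 25%, Mmp19 passed too, where 2.82% of genes did. Mmp19 was at 1.35 times the static level (1.21 to 1.51) and Mmp14 at 1.20 times (1.12 to 1.29). Mmp12 was at 0.829 times (0.820 to 0.839) and Mmp8 at 0.880 times (0.788 to 0.980). For Mmp13 the ratio was 0.901 (0.800 to 1.01), an interval that includes no difference. The median log2 ratio was -0.08 over the 7 members and -0.0003 over all genes.

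The genes whose pair of log2 ratios (shear, then knockdown) lay closest to that of Timp1, among genes with a mean of at least 5 FPKM, were Fam102a, Pcdh7 and Clec5a. Their Euclidean distances from Timp1 were 0.0685, 0.110 and 0.116 over the 3 libraries. Fam102a was at 10.2 FPKM with Ift88 shRNA, 7.13 FPKM in the sheared control and 6.69 FPKM in static cells. Clec5a, a myeloid cell surface lectin, was at 19.7, 14.7 and 13.9 FPKM in the same libraries. With 3 libraries this likeness is a description.

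In the wider family, the table held 23 MMP genes, of which 7 had a mean of at least 1 FPKM and 4 were listed at 0 in all libraries (Mmp1a, Mmp7, Mmp20 and Mmp21). Mmp9, the gelatinase of osteoclasts, was at 85.5 FPKM with Ift88 shRNA, 39.3 FPKM in the sheared control and 70.3 FPKM in static cells. Of the 17 MMP genes outside the members, only 2, Mmp9 and Mmp27, had a mean of at least 1 FPKM and could be counted. Mmp9 was past 1.5-fold lower in the shear comparison and past 1.5-fold higher in the knockdown comparison. Of all 10358 genes, 30 and 29 were past it on those sides. Mmp27 was past 1.5-fold lower only for sheared Ift88 shRNA against static cells, as were 42 of all genes. No fragment number was estimated for Mmp27, so its ratios have no interval. Timp4 was listed at 0 in all 3 libraries.

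Summed over all 23 genes, MMP transcripts came to 595 FPKM with Ift88 shRNA, 583 FPKM in the sheared control and 673 FPKM in static cells. Mmp12 made up 77.3%, 86.0% and 82.4% of these sums and Mmp9 14.4%, 6.74% and 10.5%. The TIMP sum was 140.0 FPKM with Ift88 shRNA, 134.9 FPKM in the sheared control and 144.9 FPKM in static cells. Timp2 made up 94.8%, 96.4% and 96.9% of it, and Timp1 5.05%, 3.51% and 2.90%. The ratio of the MMP sum to the TIMP sum was 4.25, 4.32 and 4.65. Without Mmp12 that ratio was 0.962 with Ift88 shRNA, 0.604 in the sheared control and 0.815 in static cells. Mmp9 was the most abundant of the genes left in each library. These are sums of transcripts and say nothing of enzyme activity.

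**Figure D5:**
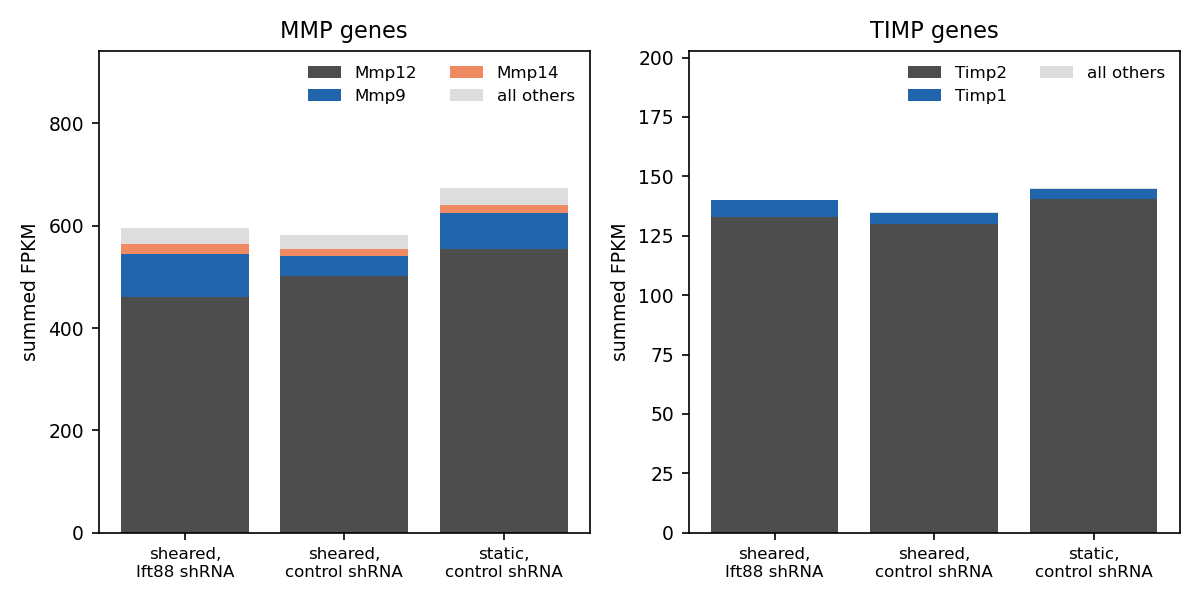
Summed FPKM of the MMP genes (left) and TIMP genes (right) in 3 libraries, as stacked bars from 0 with the named genes in colour. Mmp12 makes up 77.3% to 86.0% of the MMP bars and Timp2 94.8% to 96.9% of the TIMP bars.

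Activators and surface partners of the enzymes were also measured. Of the 13 listed MMP activators, 7 had a mean of at least 1 FPKM and none of these was past 1.5-fold in any of the 3 comparisons. Of all 10358 genes, 47, 50 and 77 were past it for shear, for knockdown and for sheared Ift88 shRNA against static cells. At such shares a list this short would mostly hold none. Bsg, the surface glycoprotein known as EMMPRIN for its induction of MMPs, was at 216 FPKM with Ift88 shRNA, 206 FPKM in the sheared control and 198 FPKM in static cells. Plau, the urokinase that generates plasmin, was at 125, 97.9 and 101 FPKM. Plg, the plasmin precursor, was listed at 0 in all 3 libraries. Of 11 listed cell-surface partners, 10 were measured at that level and none was past 1.5-fold. The partner list includes Cd63, a tetraspanin that binds Timp1, at 1340 FPKM with Ift88 shRNA, 1343 FPKM in the sheared control and 1306 FPKM in static cells, and the integrin subunit gene Itgb1, at 126.8, 129.7 and 132.0 FPKM.

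Other protease and inhibitor families were read in the same way. Of the 20 listed ADAM and ADAMTS proteases, 8 were measured and none was past 1.5-fold. Of all 10358 genes, 47, 50 and 77 were past it for shear, for knockdown and for sheared Ift88 shRNA against static cells. A list this short would mostly hold none. Adam8 was at 231 FPKM with Ift88 shRNA, 228 FPKM in the sheared control and 251 FPKM in static cells, and Adam15 at 124.9, 107.4 and 99.6 FPKM. Among 14 other inhibitors of proteases or members of their families, 10 were measured. Of these, 1 was past 1.5-fold, on the lower side of the shear comparison, where 30 of all 10358 genes were. That gene was Serpinh1, a collagen chaperone of the serpin family, at 1.28 FPKM with Ift88 shRNA, 0.774 FPKM in the sheared control and 1.76 FPKM in static cells.

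Of 20 listed matrix substrates, 9 were measured and none was past 1.5-fold. Of all 10358 genes, 47, 50 and 77 were past it in the same 3 comparisons, so a list this short would mostly hold none. In the knockdown comparison 8 of the 9 were higher, where 5552 of all 10358 genes were, with a median log2 ratio of 0.27 beside 0.01. In the shear comparison 6 of the 9 were lower, where 5588 of all genes were, with a median of -0.28 beside -0.01. Col1a1, Col1a2, Sparc and Dcn are also on the stromal marker list below, so those lists are not separate observations. Spp1, which encodes osteopontin, was at 1876 FPKM with Ift88 shRNA, 1577 FPKM in the sheared control and 1874 FPKM in static cells. Lamc1, a laminin subunit gene, was at 1.14 times the sheared control with Ift88 shRNA (1.08 to 1.19). Of 15 listed AP-1, ETS and RUNX factors, 10 were measured. Fos, an AP-1 subunit, was past 1.5-fold higher in the knockdown comparison, at 13.1 FPKM against 8.09 FPKM in the sheared control. Over all 10358 genes 29 were past it on that side.

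Markers of the lineage and of other cells were set beside these values. Of 12 osteoclast-lineage markers, 9 had a mean of at least 1 FPKM, and Calcr, Ocstamp and Oscar did not. Ocstamp was at 0.609 FPKM with Ift88 shRNA, 0.160 FPKM in the sheared control and 0.744 FPKM in static cells. Its ratio was 0.215 for shear (0.128 to 0.360) and 3.81 for knockdown (2.24 to 6.41). In the same libraries Oscar was at 0.242, 0.138 and 0.418 FPKM and Calcr at 0.0259, 0.0344 and 0.117 FPKM. Of the 9, 2 were past 1.5-fold lower in the shear comparison and 2 past 1.5-fold higher in the knockdown comparison. Over all 10358 genes the same counts were 30 and 29. Ctsk, the gene of cathepsin K, was at 18.5 FPKM with Ift88 shRNA, 12.6 FPKM in the sheared control and 29.4 FPKM in static cells. Acp5, the gene of tartrate-resistant acid phosphatase, was at 83.0, 52.9 and 97.7 FPKM in these libraries, and Dcstamp, needed for fusion, at 7.27, 3.67 and 5.21 FPKM. Ctsk and Acp5 were the markers past the fold in the shear comparison, and Acp5 and Dcstamp in the knockdown comparison. The list summed to 785 FPKM with Ift88 shRNA, 746 FPKM in the sheared control and 834 FPKM in static cells. The 2 largest parts of these sums were Tcirg1, at 403, 395 and 406 FPKM, and Atp6v0d2, at 182, 199 and 211 FPKM. Atp6v0d2 was lowest with Ift88 shRNA and so did not have the order of the sum.

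Of 11 monocyte and macrophage markers in the table, 9 were measured, with sums of 2447 FPKM with Ift88 shRNA, 2431 FPKM in the sheared control and 2468 FPKM in static cells. Fcgr1, an Fc receptor gene, was at 3.49, 4.52 and 5.86 FPKM. Of 16 stromal markers, 5 were measured, with sums of 12.5, 10.1 and 12.7 FPKM. The collagen gene Col1a1 was at 2.52, 1.76 and 2.80 FPKM and the matricellular gene Sparc at 2.67, 1.797 and 2.47 FPKM. Of the 5, 4 were lower in the sheared control than in static cells. The other, Dcn, was higher, at 1.701, 1.816 and 1.402 FPKM. Under a mean of 1 FPKM, Pdgfrb was at 0.4295, 0.5523 and 0.4531 FPKM and Postn at 0.5466, 0.4039 and 0.7059 FPKM. Cxcl12 was at 0.2656, 0.1243 and 0.2297 FPKM. Lum, Thy1, Sp7 and Alpl were at or below 0.0299 FPKM in each library. Endothelial markers summed to 28.5, 26.8 and 28.6 FPKM, with Vwf at 22.4, 21.8 and 22.8 FPKM, Kdr at 5.89, 4.83 and 5.63 FPKM, and Tek and Emcn listed at 0.

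Of 10 neutrophil markers in the table, 4 had a mean of at least 1 FPKM, and the list summed to 37.1 FPKM with Ift88 shRNA, 35.4 FPKM in the sheared control and 68.7 FPKM in static cells. The calcium-binding protein genes S100a8 and S100a9 were at 14.6, 12.6 and 24.2 FPKM and at 8.38, 6.66 and 22.3 FPKM. Ngp, which encodes a granule protein of neutrophils, had 1.45, 1.01 and 4.36 FPKM. These 3 markers were past 1.5-fold lower in the shear comparison, as were 30 of all 10358 genes. Csf3r, the receptor for granulocyte colony-stimulating factor, was at 12.0, 14.4 and 15.6 FPKM. In the sheared control Csf3r was at 0.927 times the static level (0.863 to 0.994) and Mmp8 at 0.904 times. The same ratio was 0.519 for S100a8, 0.2985 for S100a9 and 0.232 for Ngp. Under a mean of 1 FPKM, it was 0.351 for Ltf (0.237 to 0.510) and 0.193 for Camp (0.0391 to 0.760). For Cxcr2 it was 1.46 (0.631 to 3.22). Mpo lay at or below 0.0605 FPKM, and Retnlg was listed at 0. The osteoclast, macrophage, stromal, endothelial and neutrophil sums were each highest in static cells and lowest in the sheared control. The macrophage sums (2447, 2431 and 2468 FPKM) and the endothelial sums (28.5, 26.8 and 28.6 FPKM) differed little between libraries. Cd68, the most abundant macrophage marker, had another order, at 1783, 1799 and 1787 FPKM. Mmp13, Timp2 and Timp3 had the order of the sums, but their intervals for Ift88 shRNA over the sheared control included no difference. The part of these cell types in the MMP and TIMP levels was not tested. Fewer cells of a type cannot be told apart from less RNA per cell.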

How the data were processed

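Messenger RNA was sequenced in 3 libraries of mouse pre-osteoclasts, 1 per group, after selection with the Illumina TruSeq mRNA kit, per the labels' protocols. The values are FPKM, deposited by the authors in 1 table. Cufflinks 2.2.1, TopHat2 2.0.13, Trimmomatic 0.32, bcl2fastq 1.8.4 and the build mm10 appear in the submitters' processing notes, with no settings. FPKM is relative to the library, so a difference in abundant genes moves all others.

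Depth was estimated from the spacing of FPKM values below 0.3 in genes with 1 transcript of at least 1000 bases, after 190 bases were subtracted for fragment length. Of these values up to 6.5 fragments, 63.4%, 63.2% and 64.3% were whole fragments within 0.1 in the sheared Ift88 shRNA, sheared control and static libraries, so the fragment numbers are approximate and no model of counts was fitted. Clopper-Pearson intervals (95%) of ratios of FPKM treat these approximate numbers, rounded, as counts, with the shortest transcript as length. Log2 ratios used a pseudocount of 1, which understates differences of low genes, over genes averaging 1 FPKM or more. A gene was counted at 1.5-fold. With 1 library per group no test is possible.

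Named were the 9 members, Ift88, Mmp9, the genes closest to a counted member, and from each list up to 6 genes past 1.5-fold or otherwise the 2 most abundant; any other gene was picked with its values in view. The members and lists were chosen with earlier results of these data known. Gene places and start regions came from RefSeq for GRCm38, the assembly that mm10 names, and shared exon bases from GENCODE M21. Protein sequences were not used here, and the lymphoid marker list is not reported here. The depth estimate and the counts were run on simulated data drawn with the same length rule that the estimate uses. Such a run cannot show whether that rule holds for these libraries. Python 3.11.15, numpy 2.4.6, pandas 2.3.3 and scipy 1.17.1 were used.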

Additional observations from a re-analysis of the deposited data

How the results depend on the processing

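No paired analysis was possible because each group holds 1 library, and for the same reason no library could be left out. In no comparison did a member's log2 ratio change sign with a pseudocount of 0.1, centring on the median or rescaling to equal sums. Of 81 such values, 78 moved by less than their counting interval, and 3 moved further under equal sums. These were Mmp12 in the shear comparison (-0.16) and in the knockdown comparison (-0.09), and Timp2 in the knockdown comparison (0.06).

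Counts of members depended on the threshold. At 25%, 2 members passed in the knockdown comparison and 2 for sheared Ift88 shRNA against static cells, and at 2-fold 0 passed for that pair of libraries. Counts over all genes in the shear comparison, the knockdown comparison and that pair were 47, 50 and 77 at 1.5-fold. They were 80, 114 and 172 with a pseudocount of 0.1, 24, 31 and 44 with a minimum mean of 5 FPKM, 29, 15 and 22 at 2-fold, and 231, 333 and 559 at 25%. With equal sums the knockdown count of 51 split into 33 higher and 18 lower genes, against 29 and 21 on the deposited scale. The pseudocount raises the counts through low genes by construction. Depth limits Mmp2, Timp3 and Timp1, whose intervals are the widest of the 9 genes.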
